A study of Mus musculus with 8 samples.

Results

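The apoptosis genes described here are 36 mouse genes of the Bcl2 family, the caspases, the inhibitors of caspases and the factors that link death receptors and mitochondria to them. They were chosen by symbol from the 24279 genes of the deposited comparison tables, and each of the 36 had 1 line in both tables used. The cells were mouse embryonic stem cells, cultured cells of the early embryo that can give rise to all tissues of the body. LIF (leukemia inhibitory factor), which holds such cells in the undifferentiated state, had been withdrawn 6 days earlier so that differentiation could begin.

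There were 8 RNA sequencing libraries in 4 groups of 2. Cells of the group noDox are described as AGO1-4-/-, that is, without the Argonaute proteins, which microRNAs need to act on transcripts. Cells of the group DOX are described as AGO1-4-/- with AGO2 alone, made from a doxycycline-inducible transgene. Cells of the group NLS are described as AGO1-4-/- with only AGO2 that carries a nuclear localization signal, and E14 cells as wild type. The labels of all 4 groups state daily doxycycline at 2.5 µg/ml and passages 8 to 15, noDox included, and name the same inducible HA-Flag-AGO2 line, E14 included. How many clones each line stands for is not given in the sources used here. The series title asks whether silencing by microRNAs in the nucleus, through Argonaute proteins, is needed for stem cells to differentiate.

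The deposited tables of noDox against DOX and of noDox against E14 held the same values in 24279 of 24279 lines, so their second group is called DOX/E14 here. Each table gives a single level for a group of 2 libraries, in RPKM (reads per kilobase, scaled to the depth of the library), so no value per library or spread between libraries can be given, and depth is unknown. Ago1, which noDox, DOX and NLS cells are all described as lacking, had a level of 0.0159 RPKM in noDox cells, one of 16.7 in DOX/E14 and one of 0.861 in NLS. The DOX/E14 values thus go against the label DOX, though the difference did not pass in Cuffdiff (q = 0.233). The NLS level was also above that of noDox, though Ago1 was not tested there. Ago3, which the same cells are described as lacking, had 7.56 RPKM in noDox, fell to 3.001 in DOX/E14 (q = 0.00017 in Cuffdiff) and rose to 14.5 in NLS from 7.76 in noDox of that table (q = 0.00452). Ago4 had at most 0.323 RPKM in any group. Ago2 stood at 26.1, 32.6 and 35.7 RPKM in noDox, DOX/E14 and NLS, and these gene values do not separate a transgene or a deleted exon from the rest of the gene. The Y-linked Ddx3y had 11.1 RPKM in DOX/E14, 0.311 in NLS and a listed 0 in noDox, so the lines also differ in Y-linked RNA. All 10 markers of pluripotent cells were at 33.7 RPKM or more in every group, but their sum was 4463 RPKM in noDox and 1956 in DOX/E14. In DOX/E14, 5 of the 10 fell, among them Nanog (431 to 69.3 RPKM), Esrrb (189 to 33.7) and Sox2 (184 to 53.2), 2 rose, and Pou5f1 (501 and 542) did not pass. In NLS their sum was 3693 RPKM, beside 4577 in noDox of that table, and of 9 tested none passed q < 0.05 in Cuffdiff, with 0 at an unadjusted p under 0.05. Nanog, at 442 RPKM in noDox of that table and 287 in NLS, was the marker not tested there. Dppa5a made most of the difference in both sums (2555 to 645 RPKM in DOX/E14, 2620 to 1939 in NLS). The summed level of 10 fibroblast markers was 3.15 RPKM in noDox and 15.2 in DOX/E14, of 7 trophoblast markers 170 and 441, of 7 neural progenitor markers 33.3 and 58.3, of 9 extraembryonic endoderm markers 2.77 and 5.68, of 6 endothelial markers 8.16 and 5.15, and of 8 macrophage and blood markers 34.1 and 5.56. In NLS the same sums, beside noDox values of the NLS table, were 5.31 (3.23 in noDox), 195 (174), 51.5 (34.2), 3.62 (2.84), 17.2 (8.38) and 19.1 (35.0). Single genes carried some of these sums. Cd68 made up 33.0 of the 34.1 RPKM of macrophage and blood markers in noDox, where 7 of the 8 were under 1 RPKM. Krt18 (45.8 to 270 RPKM) made most of the trophoblast difference in DOX/E14 while Tfap2c fell, and Tek (5.48 to 14.5) that of the endothelial markers in NLS. In DOX/E14, 3 of 4 tested neural progenitor markers rose, Sox1 (0.351 to 5.05 RPKM), Pax6 (0.438 to 2.85) and Nes (2.86 to 19.0). Tubb3, most of that sum in noDox, did not pass there (28.9 and 30.8 RPKM). Tubb3 (29.7 to 45.6 RPKM) made most of the neural progenitor difference in NLS and did not pass (q = 0.0704 in Cuffdiff). Of the defining genes, Ptprc of blood cells was listed at 0 in noDox and NLS (0.0172 RPKM in DOX/E14). Col1a1 of fibroblasts had 0.0485 RPKM in noDox and 7.79 in DOX/E14, and did not pass (q = 0.0739 in Cuffdiff). Col1a2 of the same list went from a listed 0 to 2.46 RPKM and passed (q = 0.00017 in Cuffdiff). It was the 1 called of 3 fibroblast markers tested in DOX/E14. The part of other cell types in the results below was not tested.

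Apoptosis is run by a pair of converging routes. In the mitochondrial route, BH3-only proteins block the anti-apoptotic Bcl2 proteins or switch on the pore-forming ones, the outer mitochondrial membrane opens, and cytochrome c that leaks out assembles with Apaf1 and caspase 9. In the death receptor route, the adaptors Tradd and Fadd gather caspase 8, while Ripk1, Traf2 and the cIAP proteins turn the same signal toward survival through NF-kB. Both routes end in executioner caspases, which the inhibitor of apoptosis proteins hold back. Embryonic stem cells are known to die readily after damage or failed differentiation, and their microRNAs of the miR-290, miR-302 and miR-17 families are known regulators of death genes.

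The seeds of these microRNAs, bases 2 to 8 in capitals below, are shown because the groups are described as differing in the proteins that use them. The sequences are those of RefSeq on GRCm38.p6. The first 2 seeds overlap, so a run of AGCACTTT in a transcript matches both.
miR-295-3p: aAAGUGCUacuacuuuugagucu
miR-17-5p: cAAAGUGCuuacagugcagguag
let-7a-5p: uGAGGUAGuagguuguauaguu

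In the longest annotated 3′ untranslated region of each gene (GENCODE M21, GRCm38), AGCACTT, the match to the miR-295 seed, was present in 11 of 36 apoptosis genes (30.6%) and in 17.4% of 11225 tested genes with such a region. The miR-17 match GCACTTT was present in 12 of 36 (33.3%) and in 14.5% of tested genes, and the let-7 match CTACCTC in 2 of 36 (5.56%) and 10.6%. These regions had a median length of 1427.5 bases in the apoptosis genes and 1133 in the tested genes, and a longer region holds any 7 letters more often. A match is a run of letters, not a known site. Some of these regions run past the locus that the deposited tables give for the gene. The Ripk1 match printed below lies past the end of that locus (34035170), as does the miR-17 match of Bid past its own. Matches to the miR-295 seed, in capitals, are printed for 3 genes whose RNA differed between noDox and DOX/E14, the BH3-only gene Bcl2l11, the kinase gene Ripk1 and the caspase gene Casp2, which is not among the 36.
Bcl2l11 (chr2:128159572-128159594, plus strand): ccgagtaaAGCACTTgtcttcca
Bcl2l11 (chr2:128159769-128159791, plus strand): ggtggaggAGCACTTtctaacct
Bcl2l11 (chr2:128160443-128160465, plus strand): ccgactggAGCACTTtactgtct
Ripk1 (chr13:34036119-34036141, plus strand): gcatccccAGCACTTgggaggct
Casp2 (chr6:42281550-42281572, plus strand): aacctagaAGCACTTgtctctgc

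The 36 genes spanned a wide range of levels, and the same 3 led in every group. Mcl1, an anti-apoptotic Bcl2 protein with a short-lived transcript and protein, was the highest, with 103 RPKM (noDox), 114 (DOX/E14) and 134 (NLS). Birc6, a very large inhibitor of apoptosis that is also a ubiquitin ligase, stood at 58.2, 46.2 and 64.6 RPKM, and Bcl2l1, the gene of Bcl-xL, at 34.3, 48.5 and 42.9 RPKM. Birc6 ranked second in noDox and NLS and Bcl2l1 second in DOX/E14. At the other end, the inflammatory caspase genes Casp1 and Casp12 were listed at 0 in noDox and NLS and stood at 0.0653 and 0.0178 RPKM in DOX/E14. The medians of the 36 were 5.69 RPKM (noDox), 5.17 (DOX/E14) and 5.59 (NLS), below the median of all tested genes in the same groups (10.99, 9.90 and 10.3 RPKM). In noDox, 13 genes stood at 10 RPKM or more, 17 between 1 and 10, and 6 below 1 RPKM.

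**Figure D1:**
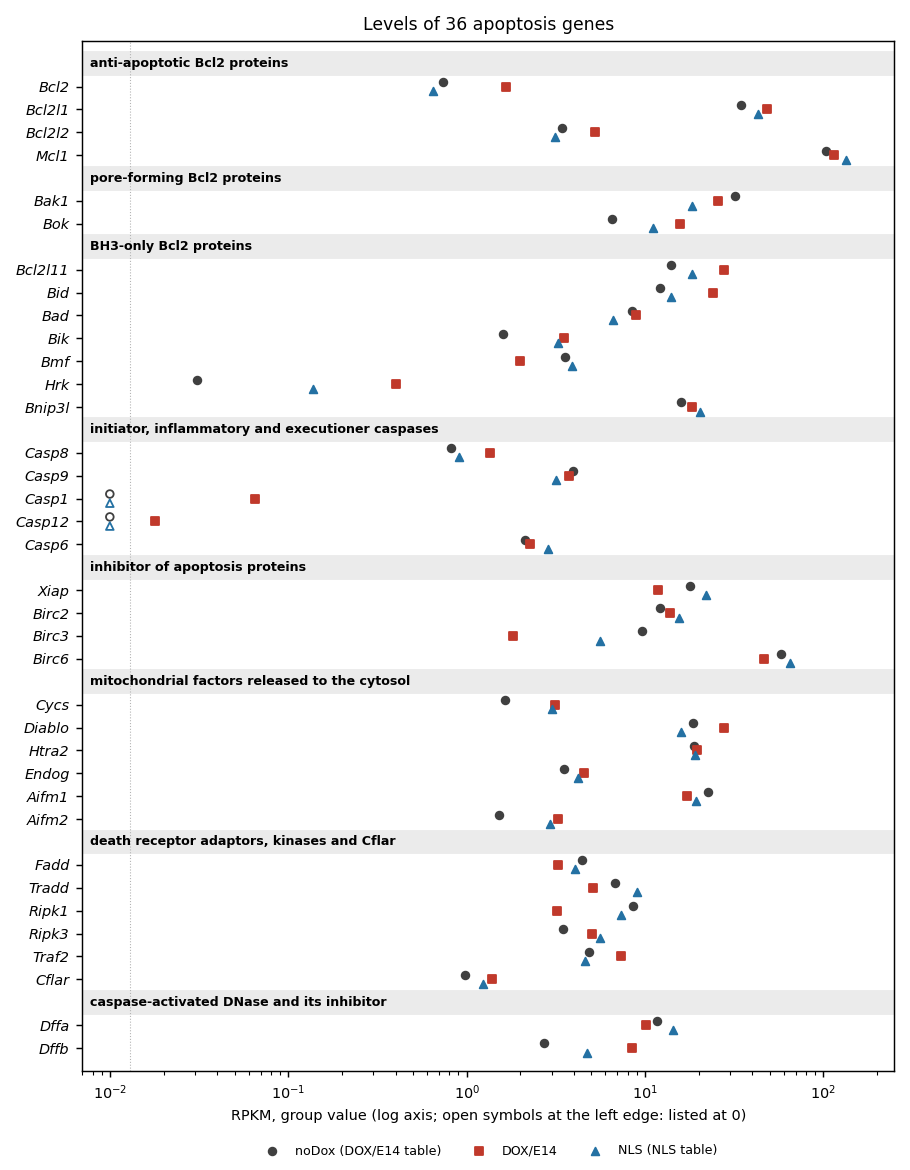
RPKM (log axis) of the 36 apoptosis genes, grouped by role, with 1 point per group: noDox and DOX/E14 from the DOX/E14 table and NLS from its own table, whose noDox values were 1.03 times higher. Mcl1 is the highest gene in all 3 groups and Casp1 and Casp12 are at or near 0; Birc3 and Ripk1 lie lowest in DOX/E14.

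In DOX/E14 against noDox, RNA of 10 apoptosis genes rose and that of 4 fell. The gene of the apoptotic nuclease, Dffb, and the pore-forming Bok rose most, and the ubiquitin ligase gene Birc3 fell most, with Ripk1 next. These calls are those at q < 0.05 in the authors' deposited table (Cuffdiff). They made up 42.4% of the 33 tested apoptosis genes, beside 55.5% of all 12382 tested genes, a share below that of genes at large. At an unadjusted p under 0.05 there were 17 of them (51.5%), beside 59.7% of all tested genes. Rises took 30.3% of the 33, beside 27.2% of all tested genes, and falls 12.1%, beside 28.3%. The median log2 fold of the 33 was 0.22, beside 0.0075 for all tested genes, and their median absolute log2 fold was 0.55, beside 0.72. Hrk, Casp1 and Casp12 were not tested there. In these bulk samples, fewer cells of a type and less RNA per cell cannot be told apart.

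All errors below are standard errors (SE) of a log2 fold, taken from the deposited test statistic. For the apoptosis genes the deposited p-values imply a z 1.42 times this statistic (median), so the SE is wider than the one behind the calls. When p was taken from the statistic instead, which called 43.3% of all tested genes, 8 of the 14 calls remained, 4 rises and 4 falls. Those lost were Bcl2, Bcl2l1, Bcl2l2, Cycs, Diablo and Traf2. With 2 libraries per group and no statement on separate cultures, these p-values may measure technical spread only.

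Of the 4 anti-apoptotic Bcl2 genes, 3 rose in DOX/E14. Bcl2, the founding member, went from 0.742 RPKM in noDox to 1.66 in DOX/E14 (log2 fold 1.16, SE 0.59, with q = 0.0206 from the authors' deposited table), and stood at 0.645 in NLS, where it was not tested. It was a low gene in every group. Bcl2l1 went from 34.3 to 48.5 RPKM (log2 fold 0.50, SE 0.26, q = 0.0159), and Bcl2l2, the gene of Bcl-w, from 3.44 to 5.23 RPKM (log2 fold 0.61, SE 0.35, q = 0.0299). These 3 are among the calls lost with p from the statistic. The log2 fold of Mcl1 was 0.15 (SE 0.26, q = 0.51), with a 95% interval of −0.36 to 0.65. Summed over the 4 genes, the level was 142 RPKM in noDox and 170 in DOX/E14, most of it Mcl1.

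Of the pore-forming genes, Bok, whose product can permeabilize mitochondria without BH3-only help, rose from 6.51 to 15.7 RPKM, a 2.41-fold change (log2 fold 1.27, SE 0.37, q = 0.00017). In NLS it stood at 11.1 RPKM, beside 6.66 in noDox of that table, and did not pass (log2 fold 0.74, SE 0.50, q = 0.201). Bak1, the pore-forming protein of the outer mitochondrial membrane, was at 32.1 RPKM in noDox and 25.5 in DOX/E14 (log2 fold −0.33, SE 0.28, q = 0.15). Bax, its partner, which is not among the 36 and is named after its values were seen, stood at 157 and 195 RPKM (q = 0.136) and was above all 36 apoptosis genes on the same RPKM scale.

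Among the 7 BH3-only genes the calls went both ways. Bcl2l11, the gene of Bim, which binds all anti-apoptotic Bcl2 proteins (chr2:128126038-128162547), rose from 13.99 to 27.9 RPKM, a 1.99-fold change (log2 fold 0.99, SE 0.28, q = 0.00017). Bid, which carries the death receptor signal to mitochondria after cleavage by caspase 8 (chr6:120891930-120916853), rose from 12.1 to 24.0 RPKM, a 1.98-fold change (log2 fold 0.99, SE 0.30, q = 0.00017). Both stood between their noDox and DOX/E14 levels in NLS, at 18.3 and 13.9 RPKM, and neither passed there. Bmf, a BH3-only protein that acts in cells that lose attachment, fell from 3.57 to 1.99 RPKM (log2 fold −0.85, SE 0.36, q = 0.0032), while its NLS level of 3.88 lay next to 3.66 in noDox of that table. Bcl2l11 holds the 3 matches to the miR-295 seed printed above. Among the called apoptosis genes, 4 of 10 that rose and 2 of 4 that fell held such a match, that of Ripk1 outside its deposited locus. For the miR-17 seed these counts were 6 of 10 and 1 of 4, that of Bid outside its deposited locus. The shares over all tested genes were 17.4% and 14.5%. Shares among all genes that rose or fell are not given here, so the counts say nothing on direction. Bik stood at 1.60 RPKM in noDox and 3.51 in DOX/E14 (log2 fold 1.13, SE 0.68) with q = 0.0523, just outside the threshold. Bad and Bnip3l, the latter also a receptor for the removal of mitochondria, had log2 folds of 0.08 (SE 0.61) and 0.22 (SE 0.27), and neither passed. Hrk was low throughout, with 0.0309 RPKM in noDox cells, 0.401 in DOX/E14 cells and 0.138 in NLS cells. The sum over the 7 genes was 55.5 RPKM in noDox and 85.1 in DOX/E14.

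No caspase among the 36 changed in DOX/E14 at q < 0.05, with 3 of 5 tested by Cuffdiff and 0 at an unadjusted p under 0.05. Casp8, the initiator of the death receptor route, had 0.816 RPKM in noDox cells, 1.352 in DOX/E14 cells and 0.902 in NLS cells. Its log2 fold of 0.73 (SE 0.61, q = 0.129) has a 95% interval of −0.47 to 1.93. Casp9, the initiator of the mitochondrial route, stood at 3.95, 3.77 and 3.15 RPKM in the 3 groups, and Casp6, an executioner, at 2.12, 2.26 and 2.85 RPKM. The 5 caspases together came to 6.89 RPKM in noDox and 7.46 in DOX/E14, the lowest sum of the 8 role groups.

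The inhibitors of apoptosis held the largest fall. Birc3, the gene of cIAP2, a ubiquitin ligase for Ripk1 and a known NF-kB target (chr9:7848699-7873186), fell from 9.59 to 1.81 RPKM, 5.30-fold lower in DOX/E14 (log2 fold −2.41, SE 0.39, q = 0.00017). In the NLS table it stood at 9.84 RPKM in noDox and 5.56 in NLS (log2 fold −0.82, SE 0.41) with q = 0.0583, outside the threshold. Birc2, its neighbour on chromosome 9 and the gene of cIAP1, stood at 12.1, 13.7 and 15.5 RPKM and passed in neither table (log2 folds of 0.19 and 0.33). Xiap, a direct inhibitor of caspases encoded on the X chromosome, fell from 17.97 to 11.8 RPKM in DOX/E14 (log2 fold −0.60, SE 0.26, q = 0.00308) and stood at 22.1 in NLS. The median log2 fold of 356 expressed X-linked genes was 0.08, beside 0.04 for 10495 autosomal genes. Birc6 did not pass (log2 fold −0.33, SE 0.29, q = 0.152). The 4 inhibitors together came to 97.8 RPKM in noDox and 73.6 in DOX/E14.

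Of 6 mitochondrial factors, 2 rose in DOX/E14. Cycs, the somatic cytochrome c, went from 1.65 to 3.11 RPKM (log2 fold 0.92, SE 0.42, q = 0.00711) and stood at 3.004 in NLS. Diablo, which displaces caspases from Xiap, went from 18.5 to 27.8 RPKM (log2 fold 0.58, SE 0.29, q = 0.00814) and stood at 15.8 in NLS. Both calls were lost with p from the statistic, and Cycs has many near-identical processed copies in the mouse genome, so its reads are uncertain. Htra2, a protease that binds inhibitors of apoptosis, stood at 18.7, 19.7 and 18.96 RPKM and Endog, a mitochondrial nuclease, at 3.51, 4.52 and 4.20 RPKM, with log2 folds of 0.07 and 0.37 in DOX/E14. Aifm1, the X-linked apoptosis-inducing factor, had a log2 fold of −0.39 (q = 0.0822). Aifm2, an oxidoreductase known for guarding cells against ferroptosis, had one of 1.10 (q = 0.0728).

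Among the death receptor adaptors and kinases, Ripk1 fell and Traf2 rose. Ripk1, the kinase at which survival, apoptosis and necroptosis part (chr13:34002363-34037147), fell from 8.56 to 3.204 RPKM, 2.67-fold lower in DOX/E14 (log2 fold −1.42, SE 0.315, q = 0.00017), and stood at 7.38 in NLS beside 8.79 in noDox of that table. Traf2, the adaptor that brings cIAP proteins to the receptor, went from 4.87 to 7.33 RPKM (log2 fold 0.59, SE 0.33, q = 0.0225), a call lost with p from the statistic, and stood at 4.61 in NLS. Fadd (log2 fold −0.46, q = 0.127), Tradd (−0.41, q = 0.226), the necroptosis kinase Ripk3 (0.55, q = 0.0933) and Cflar, a caspase-like inhibitor of caspase 8 (0.51, q = 0.185), did not pass.

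Dffb, the caspase-activated DNase that cuts chromosomal DNA between nucleosomes (chr4:153964449-153975126), showed the largest rise among the 33 tested genes. It went from 2.71 RPKM in noDox to 8.41 in DOX/E14, a 3.10-fold change (log2 fold 1.63, SE 0.40, q = 0.00017), and stood at 4.71 in NLS beside 2.78 in noDox of that table (log2 fold 0.76, SE 0.56, q = 0.245). Its inhibitor and folding partner Dffa stood at 11.6, 10.1 and 14.3 RPKM and passed in neither table. On the RPKM scale, Dffa was above Dffb in all 3 groups.

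**Figure D2:**
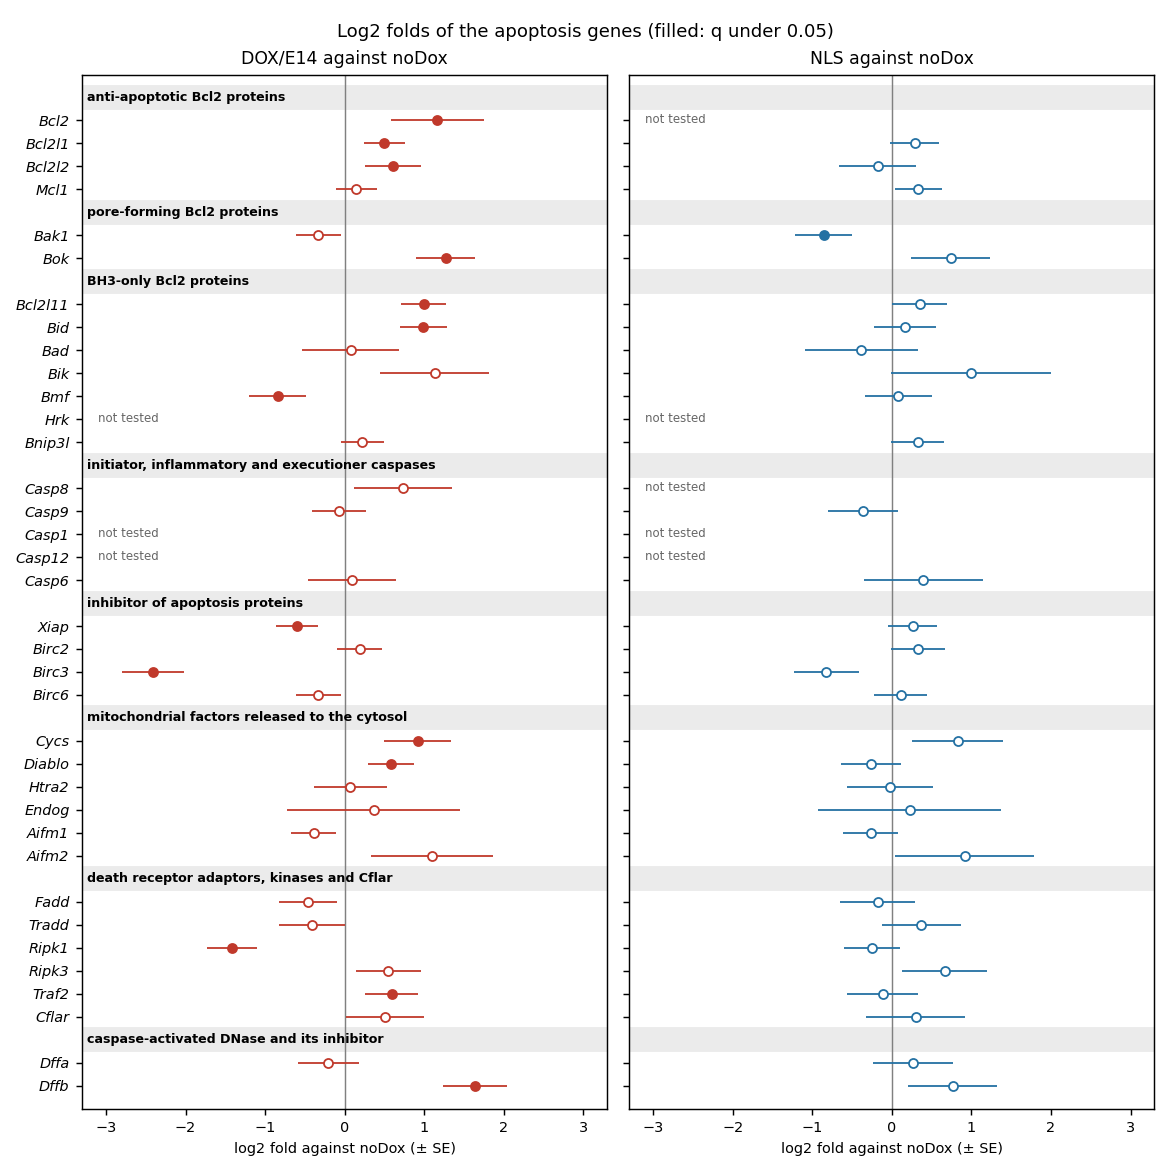
Log2 fold against noDox (points, with SE as bars) of each tested apoptosis gene in the DOX/E14 table on the left and the NLS table on the right, with filled points for q under 0.05. On the left 10 filled points lie above 0 and 4 below, Birc3 the farthest at −2.41; on the right Bak1 alone is filled, at −0.85.

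In NLS against noDox, 1 of 31 tested apoptosis genes changed (3.23%), beside 8.36% of all 12936 tested genes, of which 3.97% rose and 4.39% fell. Bak1 (chr17:27019810-27029009) fell from 33.0 RPKM in noDox to 18.2 in NLS, 1.81-fold lower (log2 fold −0.85, SE 0.36, with q = 0.0141 from the authors' deposited table). The call was lost with p from the statistic. Of the 31 genes, 4 had an unadjusted p under 0.05, namely Bak1, Birc3, Bok and Cycs, or 12.9%, beside 20.8% of all tested genes. The median log2 fold of the 31 was 0.26, beside −0.0077 for all tested genes, with 20 genes higher and 11 lower, and the median absolute log2 fold was 0.33 in both. Bcl2, Casp8, Hrk, Casp1 and Casp12 were not tested in this table. Bcl2 and Casp8 thus entered only the table in which their level was higher.

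The anti-apoptotic genes tested in NLS were Bcl2l1 (log2 fold 0.29, 95% interval −0.33 to 0.90), Bcl2l2 (−0.18, −1.12 to 0.76) and Mcl1 (0.34, −0.26 to 0.93). The 6 tested BH3-only genes had log2 folds between −0.38 (Bad) and 0.99 (Bik), the 4 inhibitors of apoptosis between −0.82 (Birc3) and 0.33 (Birc2), the 6 mitochondrial factors between −0.27 (Aifm1) and 0.92 (Aifm2), and the 6 adaptors and kinases between −0.25 (Ripk1) and 0.66 (Ripk3). The SE of these folds ran from 0.30 for Mcl1 to 1.15 for Endog.

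The DOX/E14 and NLS comparisons share their noDox libraries. The difference between the folds was tested with a z from both SEs and adjusted over 11907 genes by the Benjamini-Hochberg method. The error of the shared noDox libraries enters both SEs, so the SE of a difference is wider than one that allows for the sharing. Of the genes tested, 13.0% passed q < 0.05, 9.78% with the higher and 3.18% with the lower fold in NLS. Of 31 apoptosis genes 1 passed. This was Birc3, whose log2 fold in NLS was 1.58 above that in DOX/E14 (SE 0.56, 95% interval 0.48 to 2.69, q = 0.0415 by the z test across all genes). Ripk1 (difference 1.17, SE 0.47, q = 0.085) and Xiap (0.86, SE 0.40, q = 0.151) had unadjusted p-values of 0.0139 and 0.0323 by the same z test and did not pass. On the other side the lowest differences were those of Dffb (−0.87, SE 0.69), Diablo (−0.85, SE 0.47) and Bid (−0.82, SE 0.49), whose intervals all contained 0. With SEs taken from the p-values instead, 4 of the 31 genes passed, Birc3, Ripk1 and Xiap with the higher fold in NLS and Diablo with the lower. The share of all genes that passed with those SEs is not given here, so this count cannot be set beside genes at large.

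**Figure D3:**
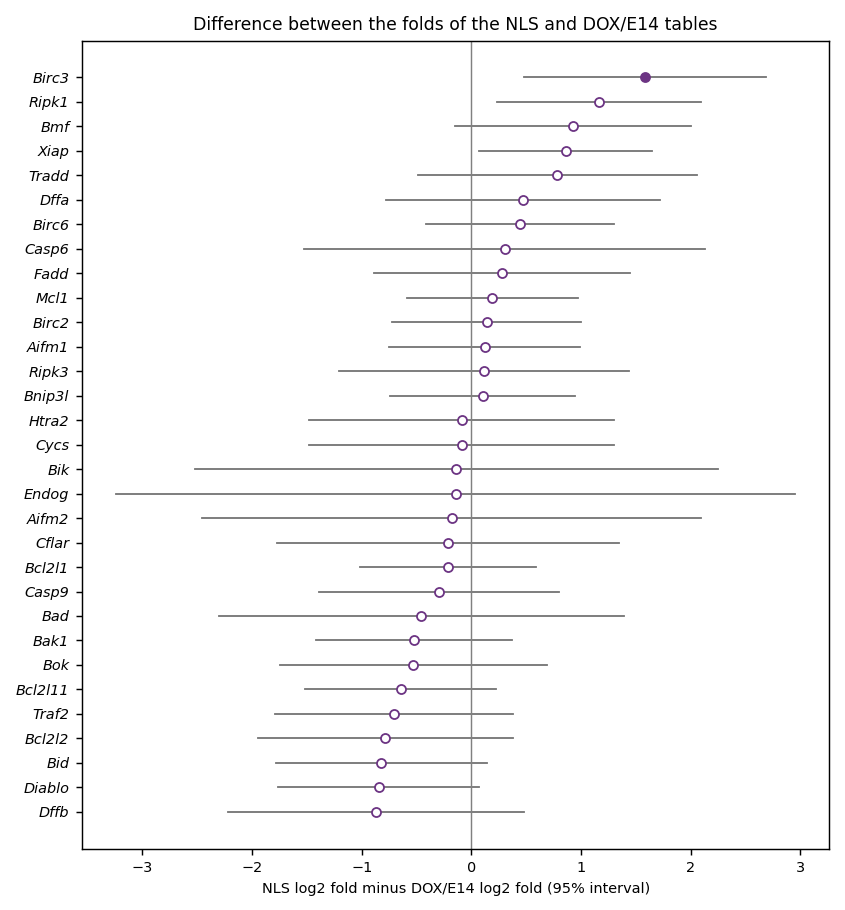
NLS log2 fold minus DOX/E14 log2 fold (points) with its 95% interval (lines) for 31 apoptosis genes tested in both tables, sorted by the difference, with a filled point for q under 0.05. Birc3 lies at 1.58 and is the filled point; the intervals of Ripk1 and Xiap also leave 0 out, those of the other genes include it.

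Exons of 13 of the 36 genes overlap another gene in GENCODE M21, and how strand was used in counting is not given in the sources used here. Among the 14 genes called in DOX/E14, 5 overlap another gene (Bcl2, Bcl2l2, Bid, Diablo and Ripk1), 3 of them one of the opposite strand that has values in the tables. Bid shares 628 exonic bases with Bcl2l13, which stood at 16.8 and 13.1 RPKM in noDox and DOX/E14 (q = 0.0837). Ripk1 shares 241 with Serpinb6a, which fell from 61.5 to 35.2 RPKM in DOX/E14 and from 63.1 to 32.7 in NLS (log2 folds −0.80 and −0.95). Diablo shares 1326 with B3gnt4, at 0.607 and 1.02 RPKM. Bak1 overlaps Ggnbp1, at 2.98 RPKM in noDox and 3.31 in NLS. The part of shared reads in these results was not tested.

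Other cell death genes were taken from 7 lists of 101 symbols, of which 100 were in the tables. In DOX/E14, 17 of 74 tested genes rose and 19 fell, or 48.6% called beside 55.5% of all tested genes, with a median log2 fold of −0.07. Among called genes with at least 1 RPKM in a group, the highest rises were those of Ltb, a lymphotoxin subunit, from 0.297 to 4.87 RPKM (log2 fold 4.04, SE 1.23), Siva1, a pro-apoptotic receptor-binding protein, from 11.5 to 84.6 (2.88, SE 0.39), Traf3, a signalling adaptor, from 1.91 to 5.24 (1.46, SE 0.32), and Moap1, a Bax-binding protein, from 3.67 to 9.66 (1.40, SE 0.53). Among the same called genes the strongest falls were those of Tnfsf12, the TNF family ligand TWEAK, from 14.99 to 0.543 RPKM (−4.79, SE 0.94), Bcl2l14 from 10.4 to 1.02 (−3.35, SE 0.49), Birc7, the inhibitor livin, from 4.86 to 0.537 (−3.18, SE 0.91), and Gsdmd, the pore-former of pyroptosis, from 15.2 to 1.76 (−3.12, SE 0.45). Zbp1, a nucleic acid sensor of necroptosis (8.56 and 0.183 RPKM, log2 fold −5.55, SE 1.62, q = 0.0939), and Bcl2l15 (6.21 and 0.195 RPKM, −4.99, SE 1.63, q = 0.0901) had lower folds and did not pass; they are named after their values were seen.

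By list, death receptors and ligands gave 3 rises and 3 falls among 8 tested, other inhibitors of apoptosis 4 and 2 among 8, and other Bcl2 genes 2 and 2 among 10. Death domain and NF-kB adaptors gave 5 rises and 6 falls among 22, engulfment genes and other effectors 2 and 3 among 14, and necroptosis and pyroptosis genes 0 and 2 among 6. Of 6 other caspase and apoptosome genes 1 rose and 1 fell. Casp2, an initiator caspase reported in mouse embryonic stem cells as a target of the miR-290 family and shown above with its seed match, fell from 27.6 to 11.0 RPKM (log2 fold −1.33, SE 0.27, q = 0.00017). It was chosen for naming after its values were seen.

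In NLS, 5 of 74 tested genes rose and 6 fell, or 14.9% called beside 8.36% of all tested genes, with a median log2 fold of 0.04. Apaf1, the scaffold on which cytochrome c activates caspase 9, rose from 15.6 to 30.6 RPKM (log2 fold 0.97, SE 0.30, with q = 0.00191 from the authors' deposited table), and Pidd1, the scaffold that activates caspase 2, from 12.4 to 24.3 RPKM (0.98, SE 0.34). Dedd2, a death effector protein, rose from 5.63 to 12.3 and Ngfr, a receptor of the TNF receptor family, from 6.06 to 11.2 RPKM. Tnfrsf1b, the second TNF receptor, fell from 3.13 to 0.890 RPKM (−1.82, SE 0.56), Gsdmd from 15.6 to 5.06 (−1.63, SE 0.45), Bcl2l14 from 10.7 to 5.17 and Dad1, a subunit of the oligosaccharyl transferase, from 65.5 to 32.0 RPKM. Casp2 fell from 28.3 to 16.6 RPKM (log2 fold −0.76, SE 0.32, q = 0.0156). With q under 0.01 the count of 11 became 4 of 74, and with p from the statistic 3 of 74. Each of these settings called 4.10% of all tested genes.

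**Figure D4:**
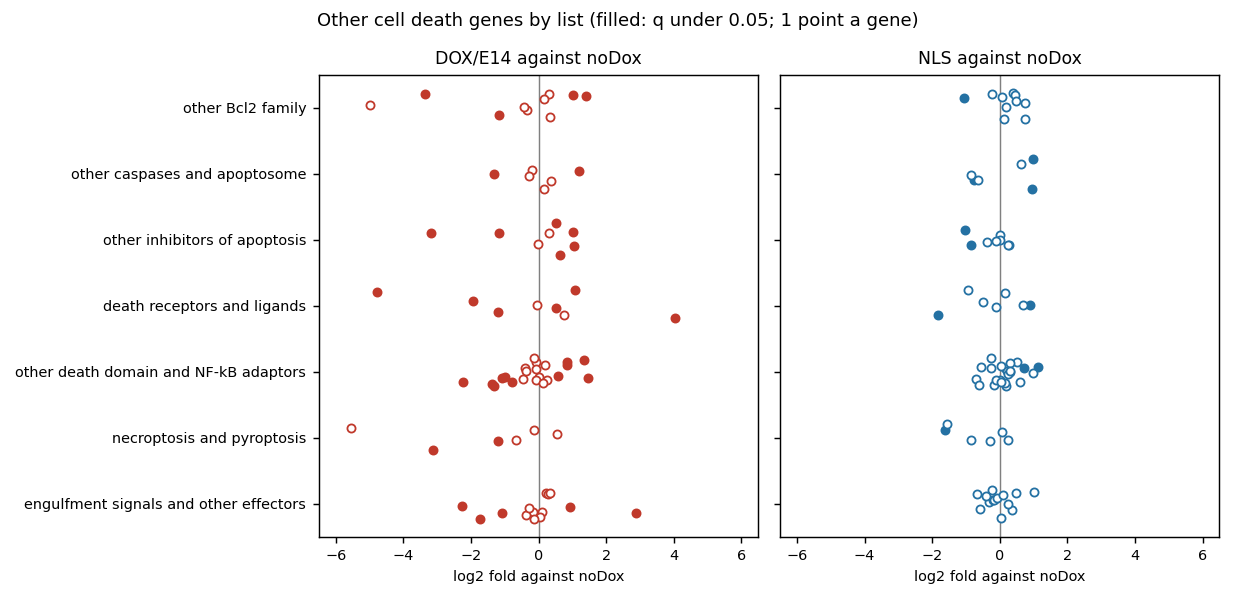
Log2 fold against noDox of each tested gene of the 7 other cell death lists, 1 point a gene with a small random vertical offset, in the DOX/E14 table (left) and the NLS table (right), with filled points for q under 0.05. On the left 36 of 74 points are filled and they spread on both sides of 0 in most lists; on the right 11 of 74 are filled and all lie between −1.82 and 1.12.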

How the data were processed

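RNA of 8 libraries in 4 groups of 2 was sequenced after depletion of ribosomal RNA with a directional kit, per the labels' protocols. TopHat, Cuffdiff, bcl2fastq (2.17.1) and the build mm10 are named, per the submitters' processing notes; the annotation and the use of strand are not given in the sources used here. The deposited RPKM values, 1 per group, the deposited p-values and q-values and the deposited test statistic, a signed score, come from the authors, per the file headers. Spreadsheet error text in the statistic was read as minus infinity. The NLS table was scaled on its own, its noDox values being 1.03 times those of the first table. A further deposited table, of log2 folds, was not used.

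Log2 folds were computed without pseudocount, and the SE as the absolute fold over the absolute statistic, with Python 3.11.15, pandas 2.3.3 and SciPy 1.17.1. The lowest q in the tables is 0.00017 and 0.00191. No model was refitted. The z test of fold differences was tested on simulated data: of 200 genes among 11907 changed by 2 on the log2 scale, 111 were recovered with 3 false calls. The simulated errors were independent and had the SEs that the test assumes, so neither those SEs nor the shared noDox libraries were checked. The largest difference among the apoptosis genes was 1.58, and recovery at that size or below was not simulated. Members and lists were chosen with earlier results of these data known. Named genes are all 36 members, the 4 strongest rises and falls per table among called other cell death genes with at least 1 RPKM in a group, the Argonautes and the cell type markers. Outside this rule, Bax, Casp2, Zbp1, Bcl2l15 and Ddx3y are named after their values were seen, and Bcl2l13, Serpinb6a, B3gnt4 and Ggnbp1 for their overlap with members. Genes were placed on GRCm38 by GENCODE M21, all 36 overlapping the deposited locus. Some items are not reported here.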

Additional observations from a re-analysis of the deposited data

Results flagged for a closer look

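Birc3 was the 1 apoptosis gene of 31 whose change against noDox differed between NLS and DOX/E14 by a test of the difference itself. Of all 11907 genes so tested, 13.0% passed, so a gene that passes is not rare. With SEs from the p-values, 4 apoptosis genes passed, and the share of all genes that did so is not given here. The log2 fold of Birc3 in NLS was 1.58 above that in DOX/E14 (−0.82 against −2.41, q = 0.0415 by the z test across all genes), and the noDox libraries are shared by both. Its RPKM was 9.59 in noDox, 5.56 in NLS and 1.81 in DOX/E14, a level set across tables that were scaled separately.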

How the results depend on the processing

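The 14 calls among the apoptosis genes in DOX/E14 became 10 with q under 0.01, 8 with p from the deposited statistic and 5 where the log2 fold also had to reach 1 in either direction. Of all 12382 tested genes, 44.7%, 43.3% and 31.5% were called under the same settings, beside 55.5% before. The call in NLS became 0 under each of these 3 settings, with 4 genes at an unadjusted Cuffdiff p under 0.05. The 11 calls among 74 other cell death genes in NLS became 4 with q under 0.01, 5 with the fold required and 3 with p from the statistic. Of all tested genes in NLS, 4.10%, 4.96% and 4.10% were called under these settings, beside 8.36% before. The differing fold of Birc3 did not pass q under 0.01 (0 genes, with 3 at an unadjusted p under 0.05 by the z test), and 4 genes passed with SEs from the p-values. For these counts of fold differences the shares of all genes are not given here. Restricting to genes with at least 1 RPKM in a group kept all 12382 tested genes of DOX/E14 and 12901 of 12936 in NLS. No tested apoptosis gene was removed, so their unchanged counts of 14, 1 and 1 are no test of the calls. Of 256 recomputed folds 255 moved by less than their SE; a pseudocount of 1 RPKM brought Birc3 in DOX/E14 to −1.91. None of the 60 folds of called genes changed sign, while 6 of uncalled genes did. No called fold could have done so under these settings. A pseudocount cannot reverse a fold, and the smallest called fold, 0.50 for Bcl2l1, exceeds the shifts from scaling. Scaling to the sum without short RNA genes shifts all log2 folds down by 0.10 in DOX/E14 and up by 0.12 in NLS. No paired analysis was possible because the tables hold 1 value per group, and for the same reason leaving out a library was not run.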

Other observations

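RefSeq promoter windows of 300 bases around the start site (GRCm38.p6) were matched for 32 of the 36 apoptosis genes and searched on both strands for 3 motifs. The NF-kB motif, GGG and TTCC with any 3 bases between, was found in Bcl2l1, Mcl1 and Traf2, or 3 of 32, beside 7.37% of tested genes, and not in Birc3. The E2F motif TTTNNCGC was found in Bcl2l1 and Fadd, beside 10.2% of tested genes. The FoxO motif GTAAACA was found in Bcl2l11 alone, beside 2.97% of tested genes. The absence of a match says only that these letters are not in this window.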
